A study of Rattus norvegicus with 24 samples.

Results

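Transcript levels were compared between 7 nucleus accumbens (NAC) libraries from MOR-sired rats and 7 from SAL-sired rats, which are 14 of the 24 libraries of the series. The MOR-sired rats were offspring of fathers that had self-administered morphine, and the SAL-sired rats were offspring of fathers that had self-administered saline, in both cases for 60 days. The series describes the offspring as male. They were killed at an age of at least 60 days, and each library was made from total RNA of bilateral punches of 1 brain region. Libraries were assigned by the region and sire group in their labels, and the sire groups were compared within this region, as the series describes. The labels name no strain, litter, animal or batch for any library, so each p-value measures the spread between these libraries. Each test treats the libraries as independent, and a shared father or litter could not be accounted for. An effect of father or litter cannot be told apart from one of morphine. In a bulk punch, fewer cells of a type and less RNA per cell cannot be told apart.

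The NAC is the ventral part of the striatum. Most of its neurons are GABAergic medium spiny neurons, which receive dopamine from the midbrain and glutamate from the cortex, amygdala and hippocampus. Direct-pathway cells carry the D1 receptor and the opioid peptide dynorphin, while indirect-pathway cells carry the D2 receptor, an adenosine receptor and enkephalin. Opioids act on mu, delta and kappa receptors, and release of dopamine in this region is part of the response to morphine. Ppp1r1b encodes DARPP-32, the dopamine-regulated phosphatase inhibitor of medium spiny neurons. Slc17a7 encodes VGLUT1, the vesicular glutamate transporter of cortical pyramidal neurons, whose cell bodies the striatum lacks. The log2 level of each served as a measure of striatal and of cortical content.

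The striatal markers were present in all 14 punches, beside Slc17a7, but the amounts differed widely between punches. Ppp1r1b had 1784, 157, 317, 3057, 667, 2125 and 289 CPM (counts per 1e+06 counts, scaled between libraries) in MOR-sired libraries 1 to 7, against 602, 863, 2329.6, 787, 1341, 857 and 2183 CPM in SAL-sired libraries 1 to 7. Slc17a7 had 720.1, 1347, 1382, 108, 1202, 557 and 1373 CPM in MOR-sired libraries, against 1287, 1149, 581, 1113, 779.8, 1054 and 609.9 CPM in SAL-sired libraries. The MOR-sired punches covered a wider span at both ends. MOR-sired 2, 3 and 7 lay below each SAL-sired library for Ppp1r1b, and MOR-sired 4 lay above all of them and had by far the least Slc17a7. Adora2a, which encodes that adenosine receptor, had 195, 3.92, 21.3, 328, 62.9, 249 and 18.5 CPM in MOR-sired libraries, against 61.4, 97.0, 291, 70.9, 161, 97.2 and 249 CPM in SAL-sired libraries. It put the same 3 MOR-sired punches below, and the same 1 above, all SAL-sired punches.

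Mean content did not pass a test between the sire groups. Mean log2 CPM of Ppp1r1b was 9.51 ± 1.66 in MOR-sired and 10.1 ± 0.759 in SAL-sired libraries (SD, n = 7 each), a difference of −0.63 with a two-sided exact permutation p = 0.371 and an adjusted p = 0.556 over 3 transcripts. Adora2a averaged 5.79 ± 2.36 in MOR-sired and 6.97 ± 0.875 in SAL-sired libraries on the same scale, a difference of −1.18 (exact permutation p = 0.243, adjusted p = 0.556, n = 7 each). Slc17a7 averaged 9.55 ± 1.33 in MOR-sired and 9.81 ± 0.464 in SAL-sired libraries, a difference of −0.26 (exact permutation p = 0.772, n = 7 each). Without MOR-sired 4 the Slc17a7 difference turned to 0.20. The smallest p that 7 against 7 allows is 0.000583.

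Punches rich in Ppp1r1b were poor in Slc17a7. Across the 14 libraries Pearson's r between the log2 levels was −0.756 (permutation p = 0.00088, adjusted p = 0.00176 over 2 relations) and Spearman's rho was −0.956 (permutation p = 1e-05, the smallest that 100000 permutations can give; adjusted p = 2e-05). Leaving out MOR-sired 2 and 4, farthest from the median Ppp1r1b level, gave r = −0.951. Within groups it was −0.806 in MOR-sired and −0.993 in SAL-sired libraries.

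**Figure D1:**
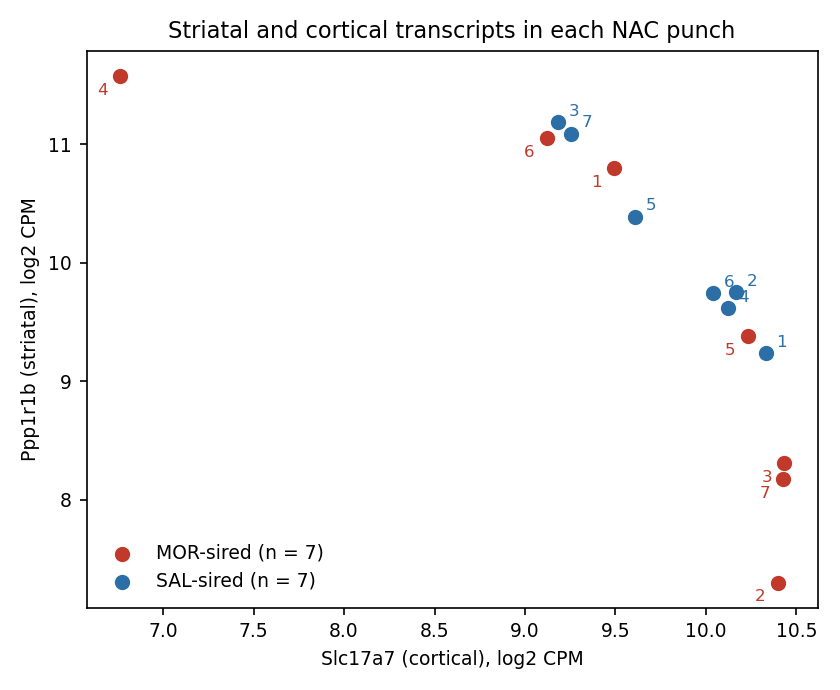
Each point is 1 NAC library, with its replicate number, placed by its log2 CPM of Slc17a7 (x axis) and Ppp1r1b (y axis), in red for 7 MOR-sired and blue for 7 SAL-sired libraries. MOR-sired 4 lies apart at the Ppp1r1b-rich, Slc17a7-poor end, and MOR-sired 2, 3 and 7 lie below every SAL-sired library for Ppp1r1b.

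Between the sire groups, no gene passed adjustment. Of 18220 genes tested with edgeR's quasi-likelihood test, 0 (0%) were called at an adjusted p under 0.05, and the smallest was 0.56. Means in MOR-sired libraries were higher for 800 genes (4.39%) and lower for 326 (1.79%) at an unadjusted p under 0.05, together 6.18% of those tested. On the same genes DESeq2 called 4 (0.022%). With limma-voom and sample quality weights 52 (0.285%) were called, 49 of them small nuclear RNA genes that had identical values. Each of these copies counted in the adjustment, so the limma-voom adjusted p of other genes may be smaller for it. Limma-voom was not repeated with 1 gene kept of each set with identical values. The named genes below are those of smallest p or widest separation, and a log2 fold change is MOR-sired over SAL-sired throughout.

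Haghl, a relative of the glyoxalase hydroxyacylglutathione hydrolase, ranged from 20.2 to 29.1 CPM (median 24.6) in MOR-sired libraries and from 17.8 to 20.3 CPM (median 19.1) in SAL-sired libraries. In 6 of 7 MOR-sired libraries it lay above every SAL-sired one, with a log2 fold change of 0.37 (SE 0.07) and an adjusted p of 0.56 by edgeR, 0.0144 by DESeq2 and 0.042 by limma-voom. Glt8d1, which encodes a Golgi glycosyltransferase of family 8, ranged from 27.2 to 37.8 CPM (median 31.7) in MOR-sired libraries and from 21.1 to 26.4 CPM (median 25.0) in SAL-sired libraries. The groups did not overlap. Its log2 fold change was 0.42 (SE 0.09), with an adjusted p of 0.56 by edgeR, 0.0214 by DESeq2 and 0.0882 by limma-voom. Tmem176a, a membrane protein gene, ranged from 63.3 to 71.0 CPM (median 65.8) in MOR-sired libraries and from 68.2 to 79.6 CPM (median 77.5) in SAL-sired libraries. The groups overlapped through SAL-sired 3, the lowest of its group, and the log2 fold change was −0.20 (SE 0.04), with an adjusted p of 0.56 by edgeR, 0.00819 by DESeq2 and 0.0293 by limma-voom.

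Usp53, a member of the ubiquitin-specific protease family found at tight junctions, was 1 of 2 genes whose 7 MOR-sired values were all below the SAL-sired ones. It ranged from 9.22 to 11.1 CPM (median 9.91) in MOR-sired libraries and from 11.1 to 13.1 CPM (median 11.9) in SAL-sired libraries. The groups did not overlap, and its log2 fold change was −0.28 (SE 0.06), with an adjusted p of 0.56 by edgeR. Each of these 4 genes kept its direction with punch content in the fit, at 0.36 (SE 0.08) for Haghl, 0.34 (SE 0.10) for Glt8d1, −0.19 (SE 0.05) for Tmem176a and −0.27 (SE 0.07) for Usp53.

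The 250 bases before the start of each of these 4 genes, from the RefSeq promoter table of assembly GRCr8, are printed 5′ to 3′ because they are the genes that another tool called or that separated the groups downward. CpG dinucleotides, the sites of most DNA methylation, are in capitals. The coordinates are of GRCr8, and the build behind the counts is not given in the sources used here.
Glt8d1 (chr16:6198464-6198713, plus strand): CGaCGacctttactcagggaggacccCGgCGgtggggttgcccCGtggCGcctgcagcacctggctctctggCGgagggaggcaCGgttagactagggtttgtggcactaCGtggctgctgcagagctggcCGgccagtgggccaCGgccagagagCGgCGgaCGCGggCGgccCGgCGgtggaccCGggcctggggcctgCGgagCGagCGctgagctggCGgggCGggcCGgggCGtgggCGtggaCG
Haghl (chr10:15313911-15314160, minus strand): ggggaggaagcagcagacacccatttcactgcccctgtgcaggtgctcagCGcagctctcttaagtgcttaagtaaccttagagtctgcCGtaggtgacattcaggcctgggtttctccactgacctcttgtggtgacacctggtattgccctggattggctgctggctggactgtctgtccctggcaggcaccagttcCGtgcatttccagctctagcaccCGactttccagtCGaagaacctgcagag
Tmem176a (chr4:79105569-79105818, plus strand): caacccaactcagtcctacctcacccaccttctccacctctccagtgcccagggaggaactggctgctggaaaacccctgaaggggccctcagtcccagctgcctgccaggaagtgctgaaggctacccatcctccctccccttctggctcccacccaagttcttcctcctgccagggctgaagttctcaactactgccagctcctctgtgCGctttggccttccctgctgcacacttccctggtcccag
Usp53 (chr2:213805309-213805558, minus strand): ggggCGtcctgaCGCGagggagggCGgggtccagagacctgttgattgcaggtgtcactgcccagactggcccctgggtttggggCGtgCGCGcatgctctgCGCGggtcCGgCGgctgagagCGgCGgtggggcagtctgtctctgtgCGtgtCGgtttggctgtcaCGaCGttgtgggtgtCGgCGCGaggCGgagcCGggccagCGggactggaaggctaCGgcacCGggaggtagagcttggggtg

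These windows were unlike each other. The Glt8d1 window held 28 CpG at 75.2% G+C and that of Usp53 held 25 at 70%. The Haghl window held 5 at 56.4% and that of Tmem176a held 1 at 61.2%, against a median of 14 CpG and 58.4% over 14496 RefSeq promoters. So genes with higher and genes with lower means were each represented by 1 CpG-rich and 1 CpG-poor window. The cAMP response element TGACGTCA, searched on both strands, was in none of the 4 windows and in 2.5% of all promoters. Its core TGACG, which overlaps it, was in the Usp53 window only and in 25.2% of all promoters.

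Further genes of smallest p with higher means had varied roles. Lmbr1l, a membrane receptor, ranged from 15.8 to 22.3 CPM (median 18.3) in MOR-sired libraries and from 12.6 to 16.4 CPM (median 13.8) in SAL-sired libraries, and its log2 fold change was 0.40 (SE 0.09). Cdc23, a subunit of the anaphase-promoting ubiquitin ligase, ranged from 33.0 to 37.8 CPM (median 34.8) in MOR-sired libraries and from 29.9 to 32.4 CPM (median 31.9) in SAL-sired libraries. Its groups did not overlap, yet the log2 fold change was only 0.16 (SE 0.04). Csf2ra, which encodes the alpha chain of the GM-CSF receptor on microglia and other myeloid cells, ranged from 8.82 to 11.9 CPM (median 10.8) in MOR-sired libraries and from 6.77 to 9.03 CPM (median 8.26) in SAL-sired libraries, with a log2 fold change of 0.39 (SE 0.09). Hdac3, the histone deacetylase of nuclear receptor corepressor complexes, ranged from 72.3 to 81.3 CPM (median 76.6) in MOR-sired libraries and from 67.2 to 70.8 CPM (median 69.3) in SAL-sired libraries. Its groups did not overlap either, at a log2 fold change of 0.14 (SE 0.03). Log2 fold changes were 0.51 (SE 0.12) for the cyclophilin family member Ppil6, 0.54 (SE 0.13) for Cfp, which encodes the complement regulator properdin, 0.22 (SE 0.05) for the mitochondrial magnesium channel Mrs2 and 0.19 (SE 0.05) for Cpsf7, a subunit of the mRNA cleavage factor that sets poly(A) sites. Each of these 8 genes had an adjusted p of 0.56 by edgeR.

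Genes of smallest p with lower means included markers of glia and vessels. Aqp4, the water channel of astrocyte endfeet, ranged from 108 to 137 CPM (median 125) in MOR-sired libraries and from 132 to 173 CPM (median 146) in SAL-sired libraries. In 6 of 7 MOR-sired libraries it lay below every SAL-sired one, at a log2 fold change of −0.29 (SE 0.07). Laptm5, which encodes a membrane protein of lysosomes in microglia and leukocytes, ranged from 22.5 to 25.6 CPM (median 23.4) in MOR-sired libraries and from 25.3 to 27.5 CPM (median 26.4) in SAL-sired libraries, with 6 of 7 MOR-sired libraries below all SAL-sired ones and a log2 fold change of −0.17 (SE 0.04). Cavin1, which coats caveolae in endothelial and mural cells, ranged from 16.9 to 18.8 CPM (median 17.7) in MOR-sired libraries and from 17.2 to 25.6 CPM (median 24.1) in SAL-sired libraries. Its MOR-sired values lay in a narrow band at the low end of the SAL-sired range, 2 of them below all SAL-sired libraries, at −0.34 (SE 0.09). The spliceosomal helicase Snrnp200 had −0.15 (SE 0.04), the endoplasmic reticulum membrane complex subunit Emc8 had −0.13 (SE 0.04), and Lrrc58, C14h4orf19 and Smim17 had −0.30 (SE 0.07), −0.29 (SE 0.07) and −0.34 (SE 0.09). Each of these 8 genes had an adjusted p of 0.56 by edgeR.

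Complete separation of the 7 against 7 libraries was rare, and about as frequent as chance would give. With no sire effect, a fraction of about 0.000583 of genes would separate completely. That is the smallest p that the exact permutation test allows for 7 against 7. Separation alone therefore does not set a gene apart from chance. Of 18220 genes, 10 (0.0549%) had all MOR-sired values above, and 2 (0.011%) all below, the SAL-sired values, together 12 (0.0659%), of which 7 had a symbol. Besides Glt8d1, Cdc23, Hdac3 and Usp53 they were Mms19, of the cytosolic iron-sulfur assembly machinery, Pcgf6, of a polycomb repressive complex, and Txnl4al2, whose mean was under 1 CPM. Mms19 ranged from 17.9 to 19.97 CPM (median 18.5) in MOR-sired libraries and from 16.3 to 17.8 CPM (median 17.2) in SAL-sired libraries, and Pcgf6 from 12.3 to 16.4 CPM (median 12.5) in MOR-sired libraries and from 10.4 to 12.2 CPM (median 11.7) in SAL-sired libraries. Their log2 fold changes were 0.14 (SE 0.04) and 0.25 (SE 0.08), with adjusted p of 0.562 and 0.592 by edgeR.

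**Figure D2:**
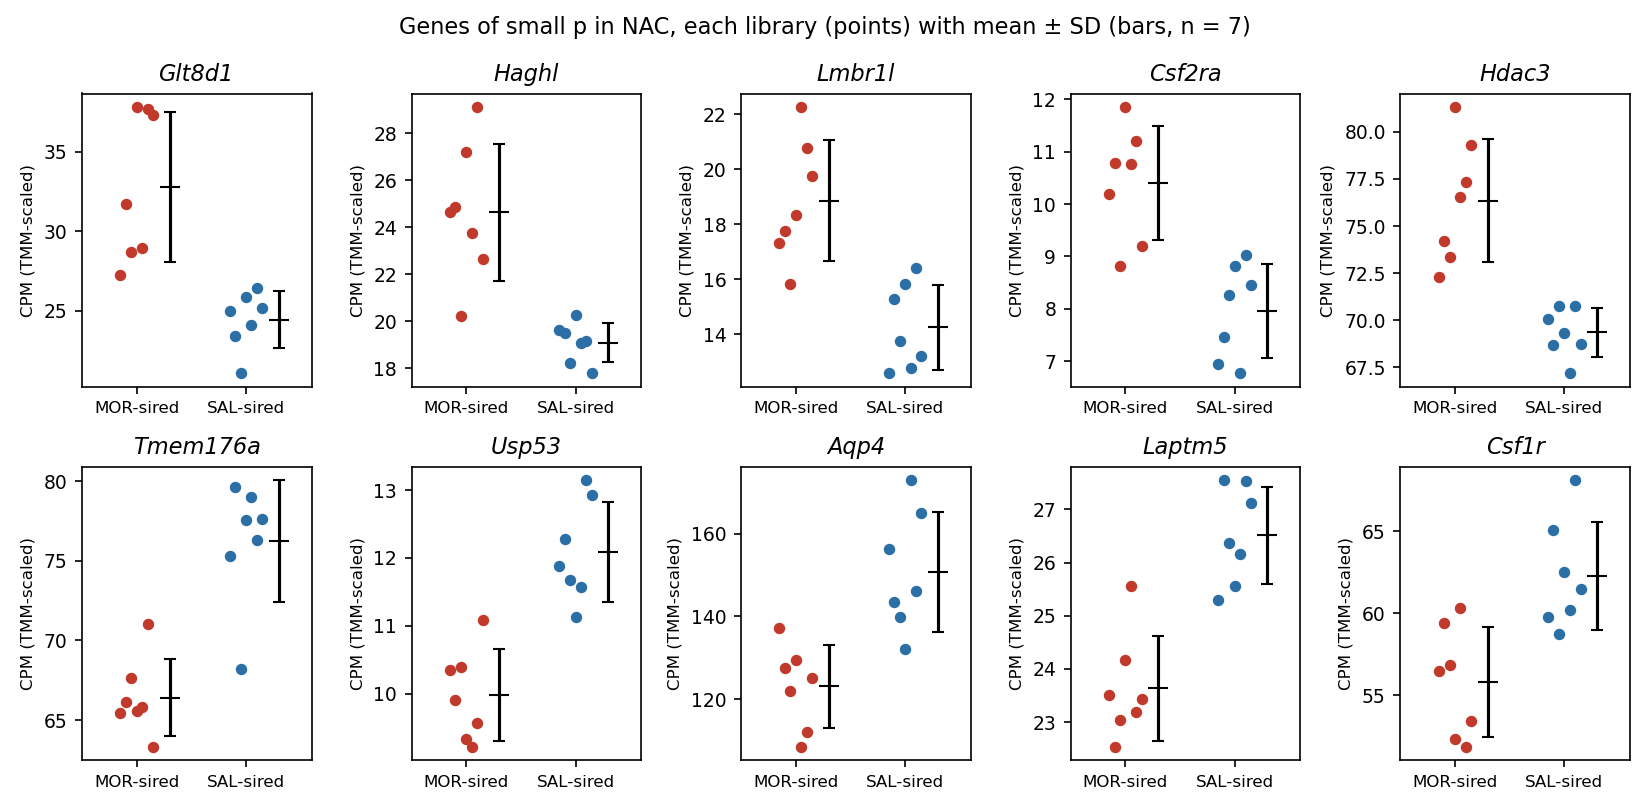
CPM of 10 genes of small p in each NAC library (points), MOR-sired in red and SAL-sired in blue, with mean ± SD (bars, n = 7 each); the y axes do not start at 0. The groups do not overlap for Glt8d1, Hdac3 and Usp53, and overlap through SAL-sired 3 for Tmem176a.

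When the centred log2 levels of Ppp1r1b and Slc17a7 were added to the fit as covariates, the sire effect again gave 0 calls among 18218 genes (0% called, with 0.583 as the smallest adjusted p by edgeR). Past an unadjusted p of 0.05 lay 872 higher (4.79%) and 559 lower genes (3.07%), together 7.85%, and 635 genes were past that level in the same direction in both fits. Without 1 library these counts ran from 337 to 1334 higher and from 245 to 1005 lower, smallest without MOR-sired 6 and largest without MOR-sired 1, and with Ppp1r1b as the only covariate they were 1453 and 1363. DESeq2 with these covariates called 75 genes (0.412%), of which 50 were small nuclear RNA genes and 19 had a symbol, and edgeR without MOR-sired 7 called 53. Of those 53, 49 were the small nuclear RNA genes of identical values, and Scarb2 alone had a symbol.

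Punch content itself was associated with many genes in this fit. The Ppp1r1b term was called for 587 genes (3.22%), 482 of them rising with it (2.65%) and 105 falling (0.576%). The Slc17a7 term was called for 1124 (6.17%), 945 rising (5.19%) and 179 falling (0.983%). Together 1650 genes (9.06%) were called for either term. Each term was tested with the other in the fit, and the 2 levels were closely related (rho −0.956). A gene that follows both may therefore be called for neither, and 9.06% is not the share of genes that vary with punch content. Among medium spiny neuron markers 27 of 29 were among them, and among cortical glutamatergic markers 14 of 20, but 0 of 18 oligodendrocyte and 1 of 21 microglial markers. Ppp1r1b and Slc17a7 belong to these neuron lists, so other markers of the same cells are bound to follow them. In lists of 18 and 21, few calls would be expected at 9.06%. These list counts therefore do not test whether the terms measure punch content. The calls for the Ppp1r1b and Slc17a7 terms rest in large part on MOR-sired 4, without which the terms called 60 and 56 genes.

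The lower genes of smallest p in the content fit were Scarb2, Abcb1a, Nptxr, Plxdc2 and Scrg1. Scarb2, which encodes the lysosomal membrane protein that carries glucocerebrosidase to lysosomes, ranged from 97.3 to 127 CPM (median 106) in MOR-sired libraries and from 112 to 131 CPM (median 126) in SAL-sired libraries. In 4 of 7 MOR-sired libraries it lay below all SAL-sired ones, with log2 fold changes of −0.25 (SE 0.04) with content and −0.18 (SE 0.06) without. Abcb1a, the P-glycoprotein drug efflux pump of brain endothelium, ranged from 13.1 to 18.97 CPM (median 15.05) in MOR-sired libraries and from 15.05 to 18.7 CPM (median 16.7) in SAL-sired libraries, and the MOR-sired range enclosed the SAL-sired one. Its log2 fold change was −0.27 (SE 0.06) with content and −0.12 (SE 0.08) without.

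Nptxr, the neuronal pentraxin receptor of glutamatergic synapses, ranged from 63.2 to 669 CPM (median 469) in MOR-sired libraries and from 265 to 549 CPM (median 427) in SAL-sired libraries. The MOR-sired range enclosed the SAL-sired one, and its log2 fold change of −0.08 (SE 0.40) without content was −0.37 (SE 0.09) with it, so that the SE was 0.218 times as large. Plxdc2 had −0.30 (SE 0.07) with content and −0.20 (SE 0.08) without, and Scrg1 had −0.24 (SE 0.06) with and −0.12 (SE 0.08) without. The higher genes of smallest p with content were Haghl, Cpsf7 at 0.22 (SE 0.05), Srrd at 0.26 (SE 0.05), the zinc finger gene Zfp692 at 0.53 (SE 0.12) and Pgap2, which remodels GPI anchors, at 0.22 (SE 0.05). Pgap2 had 0.13 (SE 0.07) without content, where MOR-sired 4 was the lowest of all 14 libraries at 14.9 CPM. Each of these 10 genes had an adjusted p of 0.583 by edgeR with content. DESeq2 with content called 8 of them, all but Abcb1a and Pgap2, and its other calls with a symbol included Aqp4 and Lmbr1l. Among all 75 calls of that fit, 49 had values identical to another call, and each of these counted in the adjustment.

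For the receptor genes Drd1, Drd2, Adora2a, Oprm1 and Oprk1 and the peptide genes Penk and Pdyn, the intervals narrowed once punch content was in the fit. Of these, Drd1, Drd2, Adora2a, Penk and Pdyn share the medium spiny neuron list with the covariate Ppp1r1b, so they were bound to follow it. The content fit compares them at equal Ppp1r1b and cannot show a sire effect that the genes of these neurons share. Drd1, the D1 receptor of direct-pathway neurons, ranged from 18.3 to 241 CPM (median 51.8) in MOR-sired libraries and from 58.6 to 174 CPM (median 70.1) in SAL-sired libraries, and the MOR-sired range enclosed the SAL-sired one. Its fold was 0.968 (95% interval 0.425 to 2.20) without content and 0.995 (0.890 to 1.11) with it. Drd2, the D2 receptor of indirect-pathway neurons, ranged from 13.3 to 196 CPM (median 49.2) in MOR-sired libraries and from 40.9 to 189 CPM (median 68.7) in SAL-sired libraries, also an enclosed range. Its fold was 0.847 (0.332 to 2.16) without content and 0.962 (0.785 to 1.18) with it, and that of Adora2a was 0.855 (0.274 to 2.66) without and 0.908 (0.718 to 1.15) with it. None of the 3 passed in either fit.

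With all libraries in, the opioid peptide precursors had folds near 1 in both fits. Penk, the enkephalin precursor, ranged from 175 to 1969 CPM (median 407) in MOR-sired libraries and from 365 to 1345 CPM (median 480.1) in SAL-sired libraries, and Pdyn, the dynorphin precursor, from 21.5 to 428 CPM (median 96.2) in MOR-sired libraries and from 85.5 to 324 CPM (median 119) in SAL-sired libraries. With content the fold was 1.00 (95% interval 0.813 to 1.24) for Penk and 1.08 (0.939 to 1.24) for Pdyn, against 0.997 (0.437 to 2.27) and 0.994 (0.380 to 2.60) without it. Each of these intervals included 1. The fold without content compares means, and MOR-sired 4 held the highest value of all libraries for both genes, at 1969 and 428 CPM. Without 1 library in turn, the log2 fold change without content ran from −0.48 to 0.21 for Penk and from −0.38 to 0.19 for Pdyn. With Slc17a7 as the only covariate the log2 fold changes were −0.52 for Penk and −0.59 for Pdyn.

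Among opioid receptors, the mu receptor Oprm1 had 8.50, 2.40, 4.17, 6.57, 3.62, 7.61 and 1.69 CPM in MOR-sired libraries, against 5.11, 5.96, 10.2, 5.00, 6.48, 5.36 and 8.77 CPM in SAL-sired libraries. In 4 of 7 MOR-sired libraries it lay below each SAL-sired one, and the others overlapped. Its fold was 0.738 (95% interval 0.451 to 1.21) without content and 0.912 (0.680 to 1.22) with it. The kappa receptor Oprk1 had a fold of 0.879 (0.478 to 1.62) without content and 0.959 (0.778 to 1.18) with it. For the delta receptor Oprd1 the fold was 0.966 (0.807 to 1.16) without content and 1.02 (0.820 to 1.28) with it, a wider interval. No receptor passed in either fit. Outside the opioid system, the log2 fold change without content was −0.06 (SE 0.23) for Th, the enzyme of dopamine synthesis, 0.12 (SE 0.44) for the neurotrophin Bdnf and −0.10 (SE 0.21) for the activity-induced factor Fos, none past its error.

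**Figure D3:**
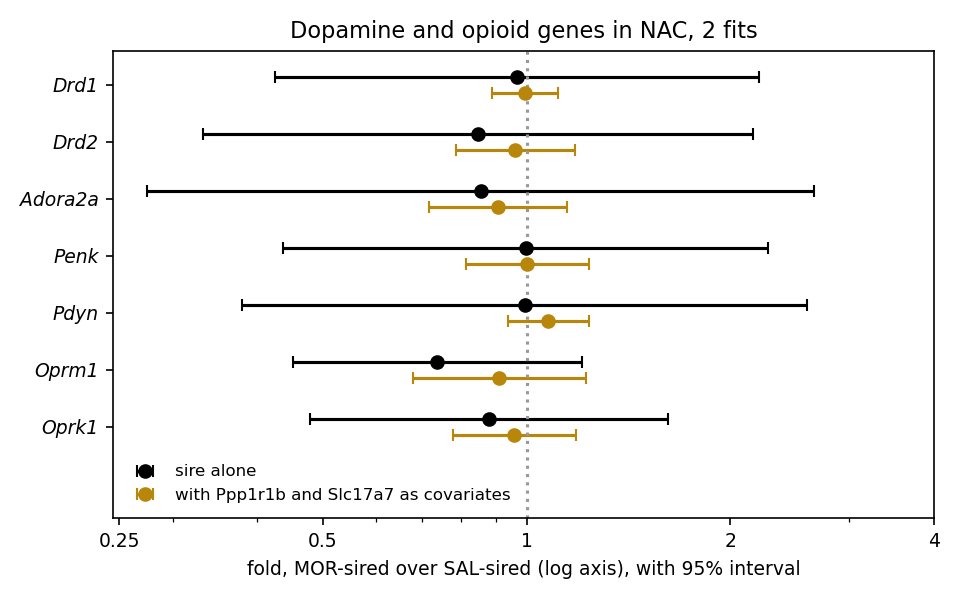
Fold of MOR-sired over SAL-sired libraries (log axis) with 95% intervals for 7 dopamine and opioid genes, from the fit with sire alone (black) and the fit with Ppp1r1b and Slc17a7 as covariates (gold). Each interval includes 1, and with content those of Drd1, Drd2, Adora2a, Penk, Pdyn and Oprk1 lie inside 0.718 to 1.24. Drd1, Drd2, Adora2a, Penk and Pdyn mark the same neurons as the covariate Ppp1r1b, so the gold intervals cannot show a change these genes share with it.

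Of the 23 gene lists set against the whole table, no list had a member called by edgeR in either fit. They are described by their counts beside all genes, of which 49.5% were higher, with a median log2 fold change of −0.0011 without and −0.0027 with content. In the striatal medium spiny neuron list 4 of 30 tested genes had higher means and 26 lower means. Its median was −0.09, with a median SE of 0.546 over the members, and with content it was −0.01, 13 higher and 16 lower, with a median SE of 0.105. As the covariate Ppp1r1b belongs to this list, the content fit cannot show a change that its members share. Examples were Ppp1r16b, a phosphatase regulatory subunit, at −0.21 (SE 0.15) and the striatal small GTPase Rasd2 at −0.24 (SE 0.48), neither of which passed. The summed level of the list ran from 1681 to 13893 CPM in MOR-sired and from 3519 to 10886 CPM in SAL-sired libraries. In the cortical glutamatergic list 10 of 21 tested genes had higher means and 11 lower means, with a median of −0.02 without content and −0.13 with it. Rorb, a transcription factor of cortical layer 4, had −0.30 (SE 0.20), and the cofactor Ldb2 had −0.17 (SE 0.12). The cortical median took the other sign, 0.07, without MOR-sired 2 and 4, and also by limma-voom, at 0.03.

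Signalling lists of these neurons mostly had lower means and medians near 0. Among opioid receptors, peptides and regulators 6 of 30 tested genes had higher means and 24 lower means, with a median of −0.05 without content and −0.04 with it. The receptor kinase Grk5 had −0.14 (SE 0.07) and the peptide-processing carboxypeptidase Cpe −0.08 (SE 0.06). Among dopamine receptor and cAMP genes 4 of 35 tested genes had higher means and 31 lower means, and the median was −0.06 without content and −0.03 with it. The 2 members at an unadjusted p under 0.05 (5.71%, against 1.79% of all genes) were lower. One was Maoa, the monoamine oxidase that breaks down serotonin, noradrenaline and dopamine, which ranged from 50.7 to 58.1 CPM (median 55.3) in MOR-sired libraries and from 56.4 to 70.7 CPM (median 59.6) in SAL-sired libraries. In 6 of 7 MOR-sired libraries Maoa lay below each SAL-sired one, and its log2 fold change was −0.16 (SE 0.05) without and −0.20 (SE 0.06) with content (adjusted p = 0.607 and 0.583 by edgeR). The other was Atf2, a transcription factor that binds cAMP response elements, at −0.14 (SE 0.07) without and −0.17 (SE 0.07) with content. The related factor Creb1, at −0.15 (SE 0.07), had an unadjusted p of 0.0504.

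Among GABA genes 3 of 25 tested genes had higher means and 22 lower means, with medians of −0.10 without and −0.09 with content. Abat, the GABA transaminase, ranged from 132 to 295 CPM (median 184) in MOR-sired libraries and from 190.3 to 332 CPM (median 229.7) in SAL-sired libraries, with a log2 fold change of −0.33 (SE 0.19) without and −0.22 (SE 0.08) with content. The GABA-B receptor auxiliary subunit Kctd16 had −0.21 (SE 0.13) and −0.32 (SE 0.15). Among glutamate receptors and scaffolds 13 of 37 tested genes had higher means and 24 lower means, with a median of −0.05 without and −0.07 with content. The NMDA receptor subunit Grin2b had −0.27 (SE 0.11) without and −0.28 (SE 0.14) with content, and the metabotropic receptor Grm3 had −0.22 (SE 0.08).

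Immediate early genes had 9 higher and 17 lower of 26, and 16 higher and 10 lower with content. The clock gene Per1 had 0.17 (SE 0.10) and Klf4 −0.22 (SE 0.18). For neurotrophin and growth factor genes the counts were 8 higher and 13 lower of 21. Interneuron genes had 4 higher and 12 lower of 16, and septal and pallidal genes 1 higher and 13 lower of 14, with content 8 and 8, and 7 and 7.

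Between 0 and 10% of the genes of each glial, endothelial and mural list were called for a content term, against 9.06% of all genes. Among microglial genes 3 of 21 tested genes had higher means and 18 lower means, with a median of −0.10 without and −0.12 with content. Csf1r, the receptor on which microglia depend for survival, ranged from 51.8 to 60.3 CPM (median 56.5) in MOR-sired libraries and from 58.7 to 68.1 CPM (median 61.5) in SAL-sired libraries. In 5 of 7 MOR-sired libraries it lay below all SAL-sired ones, at −0.16 (SE 0.05) without and −0.16 (SE 0.05) with content (adjusted p = 0.562 and 0.583 by edgeR). At an unadjusted p under 0.05 were 2 higher and 2 lower members (9.52% each, against 4.39% and 1.79% of all genes). The higher ones were Csf2ra and the lysosomal gene Cd68, at 0.25 (SE 0.11), which was named after its values were seen. The summed level of the microglial list overlapped, from 790.1 to 963 CPM in MOR-sired and from 864 to 981 CPM in SAL-sired libraries.

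Among mural and fibroblast genes 3 of 16 tested genes had higher means and 13 lower means, 4 of the lower ones at an unadjusted p under 0.05, which is 25% of the list against 1.79% of all genes. The median was −0.18 without and −0.29 with content. Rgs5, a signalling regulator of pericytes, ranged from 110.0 to 146 CPM (median 118) in MOR-sired libraries and from 126 to 144 CPM (median 136) in SAL-sired libraries. In 6 of 7 MOR-sired libraries it lay below, and in MOR-sired 2 above, all SAL-sired ones, at −0.17 (SE 0.06) without and −0.22 (SE 0.06) with content. The fibrillar collagen gene Col1a2 ranged from 3.52 to 5.23 CPM (median 4.05) in MOR-sired libraries and from 4.54 to 12.2 CPM (median 5.32) in SAL-sired libraries, where SAL-sired 7 alone exceeded 6 CPM, at −0.55 (SE 0.20). Col1a1, of the same collagen, had −0.54 (SE 0.21) and was also highest in SAL-sired 7, at 6.54 CPM. Both collagen genes are among the 4 lower members counted above.

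Among endothelial genes 4 of 19 tested genes had higher means and 15 lower means, 4 of the lower ones (21.1% of the list, against 1.79% of all genes) at an unadjusted p under 0.05, with medians of −0.07 without and −0.09 with content. The VEGF receptor Flt1 ranged from 19.7 to 22.5 CPM (median 20.9) in MOR-sired libraries and from 20.9 to 25.5 CPM (median 22.6) in SAL-sired libraries, at −0.13 (SE 0.05) without and −0.15 (SE 0.05) with content. The clotting factor carrier Vwf had −0.25 (SE 0.11) and −0.30 (SE 0.12), and the transcription factor Sox18 had −0.25 (SE 0.10) without content. Among astrocyte genes 4 of 20 tested genes had higher means and 16 lower means, with a median of −0.04 without and −0.0048 with content. Slc1a2, the main glutamate transporter of astrocytes, ranged from 488 to 643 CPM (median 539) in MOR-sired libraries and from 557 to 690.1 CPM (median 609) in SAL-sired libraries, and its −0.17 (SE 0.06) was −0.10 (SE 0.07) with content. The inward rectifier Kcnj10 had −0.17 (SE 0.09).

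Oligodendrocyte genes ran the other way, with 16 of 18 higher and 2 lower, a median of 0.05 without and 0.01 with content, and 0 members at an unadjusted p under 0.05. The myelin genes Mal and Opalin had 0.18 (SE 0.10) and 0.11 (SE 0.08), neither past an unadjusted p of 0.05. Oligodendrocyte precursor genes had 4 higher and 6 lower of 10, with a median of −0.03, and 6 higher and 4 lower with content, with a median of 0.01. The growth factor receptor Pdgfra, at −0.14 (SE 0.05), was the 1 member (10%) at an unadjusted p under 0.05, while Olig1 and Olig2, transcription factors of the lineage, had 0.06 (SE 0.07) and 0.07 (SE 0.09). In the ependymal and choroid plexus list 4 of 13 genes were higher and 9 lower, with a median of −0.47 and a median SE of 0.374. With content the median was −0.17, and over 12 settings of the fit without content it ran from −0.69 to −0.07. The list summed to 108 to 495 CPM (median 138) in MOR-sired libraries. In SAL-sired libraries it summed to 106 to 980 CPM (median 136). The secreted protein gene Mia, at 3.75 ± 1.15 CPM in MOR-sired and 2.07 ± 0.645 CPM in SAL-sired libraries, had 0.85 (SE 0.23), while the choroid plexus genes Otx2 and Aqp1 had −0.73 (SE 0.31) and −1.01 (SE 0.60) at group means of at most 1.35 CPM. Both were highest in SAL-sired 6 and 7, at 1.28 and 1.52 CPM for Otx2 and 2.79 and 3.79 CPM for Aqp1. Blood cell genes had 2 higher and 7 lower of 9 with a median of −0.10, and 7 higher and 2 lower with content, where the median was 0.06. None was at an unadjusted p under 0.05 in either fit, the globin gene Hbb-b1 having −0.45 (SE 0.27) without content.

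Chromatin and housekeeping lists had small medians. Among DNA methylation and histone modifying enzymes 27 of 51 tested genes had higher means and 24 lower means, and 6 higher (11.8%) and 1 lower member (1.96%) were at an unadjusted p under 0.05, against 4.39% and 1.79% of all genes. The median of 0.0039 took the other sign under 6 of 12 settings, RLE factors and limma-voom among them, and ran from −0.02 to 0.02 over the 12. Besides Hdac3 these included Hdac10, a class IIb deacetylase, which ranged from 13.9 to 25.3 CPM (median 19.7) in MOR-sired libraries and from 12.2 to 17.0 CPM (median 14.4) in SAL-sired libraries, with 5 of 7 MOR-sired libraries above all SAL-sired ones and a log2 fold change of 0.50 (SE 0.14). Dot1l, the histone H3 lysine 79 methyltransferase, had 0.28 (SE 0.10). Among spliceosome and RNA-binding genes 29 of 38 tested genes had higher means and 9 lower means, with a median of 0.06 in both fits, and 4 higher (10.5%) and 0 lower members were at an unadjusted p under 0.05, against the same 4.39% and 1.79%. The splicing factor Srsf5 ranged from 248 to 430.0 CPM (median 312) in MOR-sired libraries and from 227 to 284 CPM (median 256) in SAL-sired libraries, at 0.33 (SE 0.10). The U1 snRNP protein Snrnp70 had 0.26 (SE 0.09) and the splicing factor Srsf6, which took the other sign with the lncRNA share as a covariate, had 0.26 (SE 0.09).

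Ribosomal protein genes had 12 higher and 42 lower of 54, with a median of −0.03, such as Rpl12 at −0.17 (SE 0.09) and Rps28 at −0.08 (SE 0.05). Respiratory chain genes had 11 higher and 34 lower of 45, with a median of −0.02, such as the complex II subunit Sdha at −0.11 (SE 0.04) and the complex I subunit Ndufb10 at −0.10 (SE 0.05). Proteasome and ubiquitin genes had 13 higher and 27 lower of 40, with a median of −0.03, such as the 19S subunit Psmd2 at −0.09 (SE 0.03). None of these members passed.

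**Figure D4:**
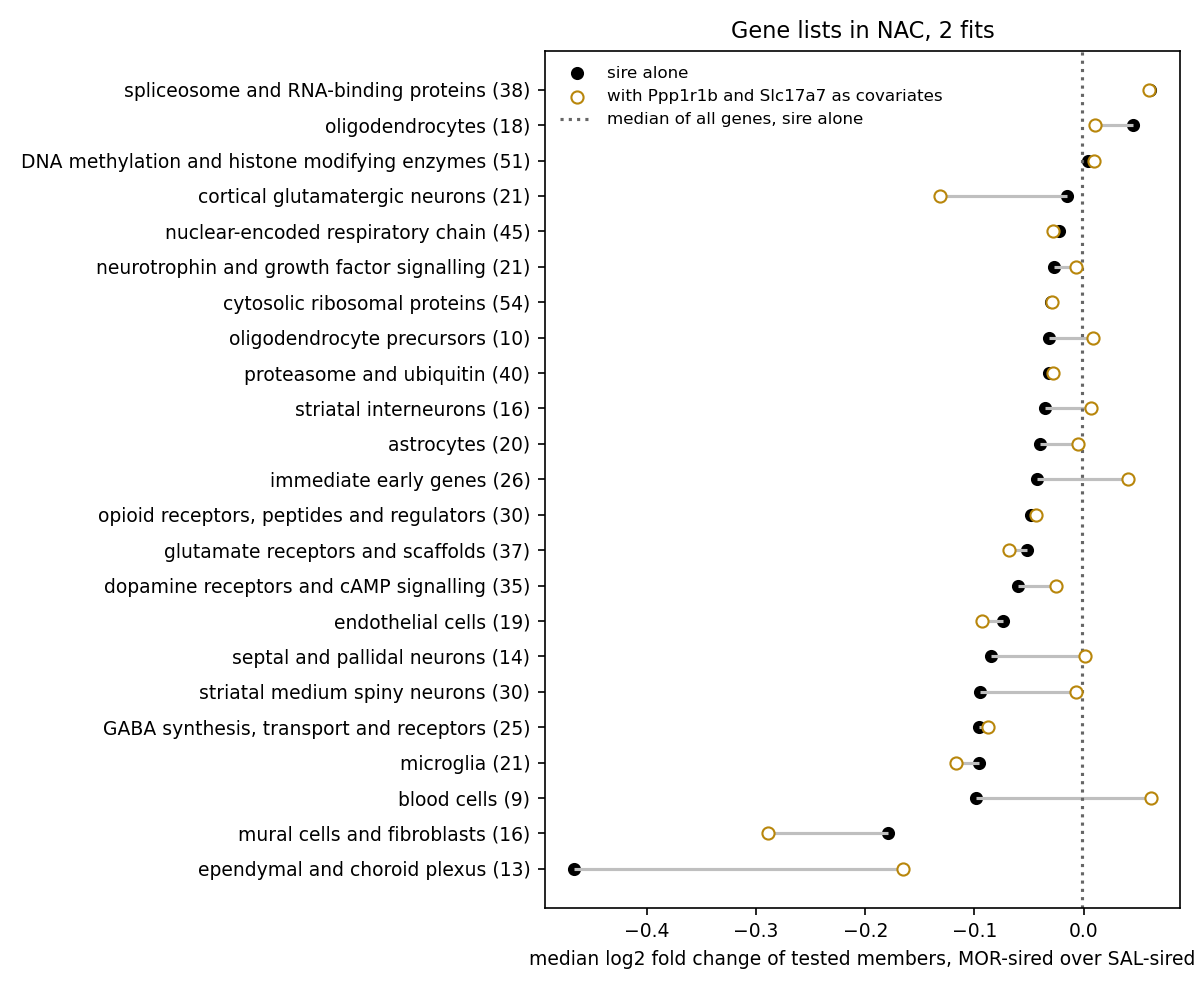
Median log2 fold change of the tested members of 23 gene lists (their number in brackets), MOR-sired over SAL-sired, from the fit with sire alone (black) and with Ppp1r1b and Slc17a7 as covariates (gold rings); the dotted line is the median of all genes. Mural cells and fibroblasts lie at −0.18 and −0.29, medium spiny neurons at −0.09 and −0.01, and spliceosome genes at 0.06 in both.

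The excess of higher over lower genes at small p was not spread evenly over RefSeq gene classes. Among 2274 long noncoding RNA (lncRNA) genes, 227 (9.98%) were higher and 16 (0.704%) lower at an unadjusted p under 0.05, with a median log2 fold change of 0.17. Among 15369 protein-coding genes, 540 (3.51%) were higher and 307 (2%) lower, with a median of −0.01. Among small nucleolar RNA genes 17 of 312 (5.45%) were higher and 1 lower, against 4.39% and 1.79% of all genes. Of the 6073 genes of lowest mean level 357 (5.88%) were higher and 87 (1.43%) lower, against 178 (2.93%) and 111 (1.83%) of the 6074 of highest mean level. Among protein-coding genes alone, 4.05% were higher and 1.88% lower at the lowest level. The shares were 4.09% and 2.24% at the middle level, and 2.62% and 1.84% at the highest. In protein-coding genes the lowest level thus did not exceed the middle level in its share of higher genes.

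Of 21 lncRNA genes with a symbol and a mean of at least 10 CPM, 14 were higher and 7 lower, with a median of 0.07. This cut was chosen after the values were seen. Of the 21, 5 higher and 1 lower were at an unadjusted p under 0.05, and the 5 named here are the higher ones. Meg3, a maternally expressed imprinted lncRNA, averaged 789.8 ± 267 CPM in MOR-sired and 534 ± 119 CPM in SAL-sired libraries (SD, n = 7 each), a log2 fold change of 0.57 (SE 0.21). Snhg11, a small nucleolar RNA host gene of neurons, averaged 189.7 ± 33.6 CPM in MOR-sired and 142 ± 13.4 CPM in SAL-sired libraries, at 0.42 (SE 0.11). Tincr, Tug1 and Dancr had 0.65 (SE 0.17), 0.79 (SE 0.23) and 0.35 (SE 0.12), and the adjusted p of these 5 genes ran from 0.56 to 0.661 by edgeR.

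The lncRNA share of each library's counts followed the same direction. It ran from 0.901 to 1.12% (median 1.07%) in MOR-sired libraries and from 0.842 to 1.00% (median 0.903%) in SAL-sired libraries, and 5 of 7 MOR-sired libraries lay above all SAL-sired ones. The means were 1.03 ± 0.0899% in MOR-sired and 0.902 ± 0.0544% in SAL-sired libraries (SD, n = 7 each; exact permutation p = 0.0128, adjusted p = 0.0513 over 8 measures of the libraries chosen after seeing the data). The share of small nuclear and nucleolar RNA was 1.17 ± 0.222% in MOR-sired and 0.952 ± 0.209% in SAL-sired libraries (exact permutation p = 0.0851, adjusted p = 0.227), and that of ribosomal RNA was 0.228 ± 0.0907% in MOR-sired and 0.302 ± 0.0832% in SAL-sired libraries (exact permutation p = 0.138, adjusted p = 0.275). With the lncRNA share as a covariate, edgeR called 0 genes, and 129 genes were higher and 159 lower at an unadjusted p under 0.05, among them 29 and 28 lncRNA genes. The spliceosome median was then −0.0033 and the oligodendrocyte median −0.04, and the opioid, glutamate, immediate early gene and cortical medians were 0.01, 0.03, 0.06 and 0.21, so that each of these 6 lists took the other sign. So did 4 further lists, with medians of 0.01 for oligodendrocyte precursors, 0.09 for blood cells, −0.0048 for DNA methylation and histone enzymes and 0.02 for neurotrophin genes, while the mural and fibroblast median was −0.21 and the microglial one −0.17. The lncRNA share and the sire group moved together, and the part of the share in these results was not tested further.

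The libraries also separated by sire on the second principal component of log2 CPM over all tested genes, which held 12.3% of the variance. Its scores ran from −13.2 to 45.0 (median 21.3) in MOR-sired and from −41.3 to −8.72 (median −23.9) in SAL-sired libraries. In 6 of 7 MOR-sired libraries the score lay above every SAL-sired one, with MOR-sired 7 inside the SAL-sired range. The means were 22.2 ± 19.7 in MOR-sired and −22.2 ± 11.0 in SAL-sired libraries (SD, n = 7 each; exact permutation p = 0.00175, adjusted p = 0.014 over the same 8 measures). The first component, with 21.4% of the variance, did not pass (exact permutation p = 0.886), nor did the third, with 9.56% (exact permutation p = 0.582).

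The first 2 components carried different genes. On the first, the median correlation of the list members with the score was 0.91 for medium spiny neurons and −0.93 for cortical neurons. On the second it was −0.09 and −0.13 for these lists, and it was farthest from 0 for mural and fibroblast (−0.40), proteasome (−0.33), respiratory chain (−0.32) and endothelial genes (−0.31). The genes most strongly tied to the second component were Pomt2, an O-mannosyltransferase (r = 0.879), Als2cl (0.870) and the zinc finger gene Zfp384 (0.861) at one end, and Usp53 (−0.887), the SMN complex gene Gemin6 (−0.829) and Zfp37 (−0.777) at the other. Aqp4 (−0.763) and Smim17 (−0.772) lay toward the second end, and Cpsf7 (0.849) toward the first. These correlations are across the same 14 libraries that define the component and are a description.

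Across the 14 libraries the lncRNA share correlated with the second component, with r = 0.668 (permutation p = 0.0115, adjusted p = 0.0115 over 2 relations) while rho was 0.626 (permutation p = 0.0185, adjusted p = 0.0185). Leaving out MOR-sired 4 and 5 gave r = 0.622. Within groups it was weaker, at 0.268 in MOR-sired and 0.234 in SAL-sired libraries. The sign was set by turning the component to follow the share. The component was also computed over genes that include the lncRNA genes, so the 2 measures are not independent.

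**Figure D5:**
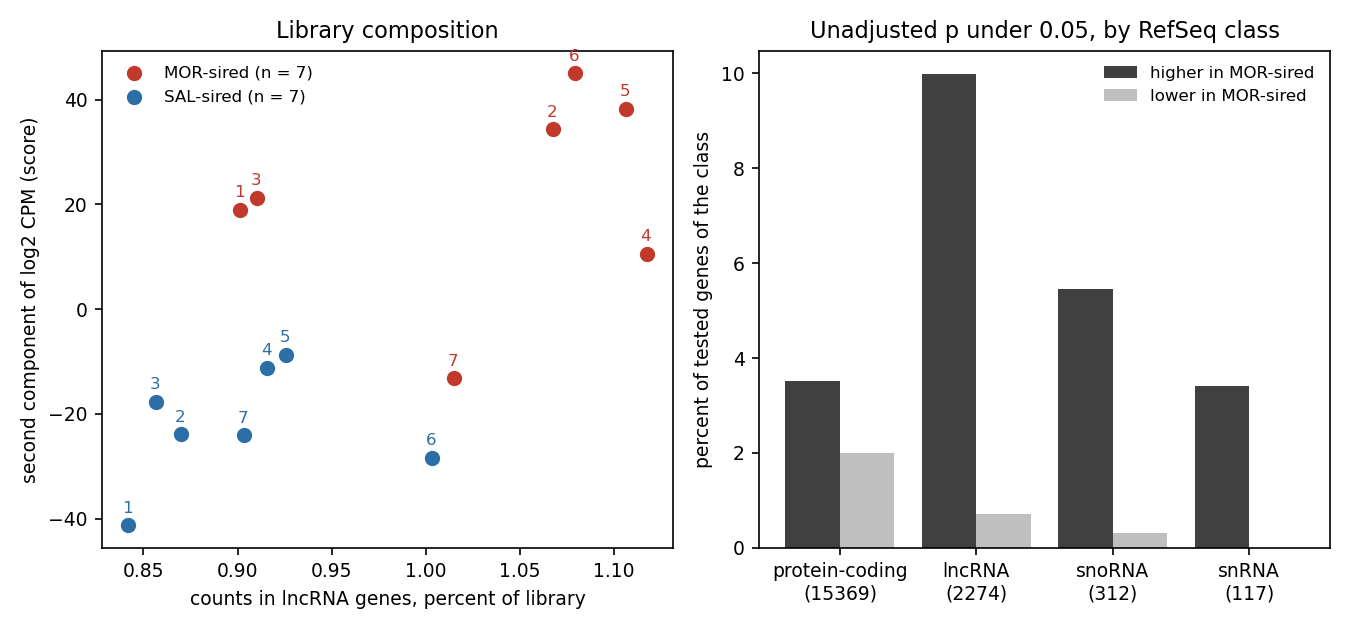
Left, the share of counts in lncRNA genes (x axis, percent) and the score on the second principal component (y axis) of each library, with its replicate number, in red for 7 MOR-sired and blue for 7 SAL-sired libraries. Right, the percent of tested genes of each class (their number in brackets) at an unadjusted p under 0.05 with higher (dark) and lower (light) means in MOR-sired libraries: 9.98% and 0.704% of lncRNA genes, against 3.51% and 2% of protein-coding genes.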

How the data were processed

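RNA sequencing libraries of 7 MOR-sired and 7 SAL-sired NAC punches were analysed; the VTA table was not used here. Per the labels' protocols, total RNA was isolated by a phenol-based reagent and column purification, and the library kit was directional. Per the submitters' processing notes, the authors used Trim Galore, kallisto and DESeq2, without versions. The deposited table holds estimated counts for each gene, which per the file name the authors made from transcript abundances (TPM) scaled to each library's total. They are not reads per gene, and short RNAs receive larger values per read. Genome build, annotation and strand setting were not given in the sources used here. All 37403 identifiers matched a RefSeq GRCr8 symbol, used for names and classes, and 2982 of the 18220 tested were LOC or RGD identifiers, counted but not named. Identifiers that shared reads with near-identical copies could not be separated.

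Estimated counts were rounded to whole numbers. Totals were 22.9 to 31.8 M in MOR-sired and 21.9 to 41.3 M in SAL-sired libraries (1 M is 1e+06 counts), and no counting interval was computed for scaled estimates. Genes kept by edgeR's filterByExpr were tested with edgeR's quasi-likelihood test (TMM factors, sire group, Benjamini-Hochberg adjustment, called at an adjusted p under 0.05), alone and with centred log2 CPM (prior count 2) of Ppp1r1b and Slc17a7 as covariates. CPM are TMM-scaled. The SE is the log2 fold change over the square root of F. Log2 fold changes of the fits compare mean levels, while content differences compare means of log2 levels. Single values were compared by two-sided exact permutation tests over 3432 splits. Tools were edgeR 4.0.16, DESeq2 1.42.0 and limma 3.58.1 in R 4.3.3, and the fits were tested on simulated data.

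Named genes had a symbol and a mean of at least 1 CPM. They were the 10 higher and 10 lower genes of smallest p, 5 and 5 of the content fit, genes called by DESeq2 on the same genes in the fit without content, non-overlapping genes, at most 3 members with the smallest p in each of 23 lists, without the level condition, and 13 fixed reward and content genes. lncRNA and component genes were named after their values were seen. The members and lists were chosen with earlier results of these data known. Alternatives covered scaling, filters, tools, identical genes, protein-coding genes, other covariates, a replicate block and leaving out libraries. Of the list genes, Ctgf, Fcrls, Ly6c1 and Ccdc153 were not in the table under these symbols, and Gbx1, Siglech, Dnah11, Clic6, Slc4a1 and Drd4 did not pass the filter.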

Additional observations from a re-analysis of the deposited data

Results flagged for a closer look

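Of 182 groups of 7 libraries checked, over 91 genes and library measures, 8 held a library that stood apart from the other 6, where chance gives about 1 in 20. Slc17a7 and Rorb, both cortical, were lowest in MOR-sired 4, at 108 CPM (others 557 to 1382 CPM) and 3.09 CPM (others 6.42 to 10.2 CPM). Pgap2 was also lowest in MOR-sired 4, at 14.9 CPM (others 19.6 to 21.1 CPM). In SAL-sired 3, Tmem176a was lowest at 68.2 CPM (others 75.3 to 79.6 CPM) and the delta opioid receptor Oprd1 highest at 16.3 CPM (others 9.37 to 11.8 CPM). The pericyte gene Rgs5 was highest in MOR-sired 2, at 146 CPM (others 110.0 to 123 CPM), the library with the least Ppp1r1b. The collagen gene Col1a2 was highest in SAL-sired 7, at 12.2 CPM (others 4.54 to 5.91 CPM). The total of SAL-sired 5 was 41.3 M (others 21.9 to 29.1 M).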

How the results depend on the processing

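The count of 0 sire calls held under each scaling, filter, gene class and replicate setting of edgeR and without each library in turn (0 to 0 calls, smallest adjusted p from 0.0668 to 0.99), but DESeq2 called 4 and limma-voom 52. With content, edgeR called 0 to 53 without 1 library (53 without MOR-sired 7), 3 with a replicate block, none with a symbol, and DESeq2 called 75. Non-overlapping genes numbered 12, and 6 at a mean of at least 5 CPM. Content calls ran from 60 to 655 for Ppp1r1b and from 56 to 1157 for Slc17a7 without 1 library, lowest without MOR-sired 4. Content differences ran from −0.98 to −0.26 for Ppp1r1b, −1.61 to −0.55 for Adora2a and −0.41 to 0.20 for Slc17a7. The lncRNA share difference ran from 0.111 to 0.147 percentage points and the second component difference from 40.5 to 50.2. Genes higher at an unadjusted p numbered 592 to 1050 and lower 238 to 544 without 1 library, 1271 and 878 without a filter, 503 and 191 at 5 CPM, 993 and 651 by limma-voom, and by scaling 766 and 371 (RLE), 839 and 296 (upper quartile) and 884 and 235 (total count). With content lower genes numbered 1060 without a filter, 315 at 5 CPM and 945 with Slc17a7 only, and limma-voom gave 1521 higher and 1115 lower. The median took the other sign without MOR-sired 2 and 4 for oligodendrocyte precursor and immediate early genes, and by limma-voom for oligodendrocyte precursor and neurotrophin genes. lncRNA genes higher and lower numbered 473 and 133 without a filter, 29 and 2 at 5 CPM, and 140 and 20 without MOR-sired 2 and 4, which with the lncRNA share as a covariate were chosen after seeing the data. The replicate numbers did not pair the libraries: same-numbered libraries correlated from −0.26 to 0.0964, and 0 of 7 numbers correlated best with their own. No gene named in the report lost an edgeR call, since there was none. The log2 fold changes that turned in sign were smaller than their SE, except Srsf6, Mal and Rorb without content and Pdyn with it, and the causes were not tested.

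Of 2278 alternative values of 88 genes without content, 64 turned in sign, and of 1506 values of 52 genes with content, 28. Without content, Penk was 0.0027 (upper quartile), 0.022 (total count), 0.0083 (5 CPM) and 0.0087 (protein-coding), Pdyn was 0.018, 0.0041 and 0.0038 under the last 3 of these settings, and Th was 0.056 by limma-voom. With the replicate block Slc17a7 was −0.16 and Bdnf −0.17. Without MOR-sired 2 and 4 Th was 0.022 and Fos 0.060. With the lncRNA share Nptxr was 0.094, Oprd1 0.14, Fos 0.062, Rorb 0.095, Mal −0.033 and Srsf6 −0.0036. With content, Penk was −0.0015 (RLE), −0.0071 (no filter), −0.00068 (DESeq2), −0.018 (replicate block), −0.52 (Slc17a7 only), −0.025 (Adora2a for Ppp1r1b), −0.042 (list means) and −0.054 (without MOR-sired 2 and 4). Pdyn was −0.59 with Slc17a7 only, and Drd1 0.046 and Oprk1 0.0046 with Ppp1r1b only. Drd1 was 0.021 with Adora2a and 0.030 with list means, where Drd2 was 0.047 and Oprm1 0.0018. Without 1 library in turn and without content, ranges were −0.27 to 0.11 for Nptxr, −0.53 to 0.12 for Ppp1r1b, −0.68 to 0.031 for Adora2a, −0.089 to 0.22 for Slc17a7, −0.46 to 0.14 for Drd1, −0.62 to 0.0067 for Drd2, −0.098 to 0.054 for Oprd1, −0.48 to 0.21 for Penk, −0.38 to 0.19 for Pdyn, −0.15 to 0.065 for Th, −0.080 to 0.31 for Bdnf and −0.23 to 0.021 for Fos. With content they were −0.060 to 0.036 for Drd1, −0.16 to 0.0096 for Oprk1 and −0.081 to 0.067 for Penk.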

Other observations

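Promoter base composition was read beside the direction of the protein-coding genes, of which 82.2% had a RefSeq promoter window. Of the 4206 genes with the least G+C 180 (4.28%) were higher and 90 (2.14%) lower in MOR-sired libraries at an unadjusted p under 0.05. Of the 4254 of middle G+C the counts were 177 (4.16%) and 74 (1.74%), and of the 4170 with the most G+C 105 (2.52%) and 85 (2.04%). Of the 2005 genes high in both G+C and mean level, 38 were higher and 39 lower. Of 65 microRNA genes 6 (9.23%) were higher and 0 lower, and of 24 ribosomal RNA genes 0 were past this level in either direction, against 4.39% higher and 1.79% lower of all genes.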
